A study of Mus musculus with 2 samples.

Results

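The Slc2a genes encode the facilitative glucose transporters, or GLUT proteins, and the 10 members described here are Slc2a1, Slc2a2, Slc2a3, Slc2a4, Slc2a5, Slc2a6, Slc2a8, Slc2a9, Slc2a10 and Slc2a12. A member's values came from the probes, other than control probes, whose transcript identifier belongs to its symbol. Of the 10 members, 9 had a probe, 8 had a probe that the scanner software called well above background on at least 1 array (detected), and the 10 probes covered 19 spots on each array, out of 20652 genes and 39402 probes in all. No probe was matched to Slc2a12, so its expression was not analysed here.

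GLUT proteins are membrane carriers that let a hexose run down its concentration gradient in either direction, so that the same carrier can take up glucose after a meal and release it during a fast. GLUT2, encoded by Slc2a2, is the main glucose carrier of the hepatocyte membrane, whereas GLUT4, encoded by Slc2a4, is the carrier that insulin brings to the surface of fat and muscle cells. Other members carry fructose, urate or other substrates, or reside on membranes inside the cell.

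The comparison was between the livers of male C57BL/6J mice, aged 8 to 12 weeks by the study's methods, that were fasted or fed. The fasting group was fasted overnight for 14 to 16 h, given elsewhere in the labels as 16 h, and the feeding group is described both as given food after a fast and as having free access to food, so that its feeding schedule is not settled here. Neither group is labelled with a transgene, an allele or a drug, and both were housed under the same 12-h light cycle. RNA from 3 livers was pooled within each group, labelled with Cy3 and hybridised to a single-colour Agilent mouse array, so there was 1 array per group.

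Each array held 43020 transcript spots, of which 63.1% were detected in the fasting pool and 72.3% in the feeding pool. Since no array was repeated, the differences between feeding and fasting have no replicate check and no test, and a gene was called only by the size of its change, at 2-fold. In the whole-liver pools, fewer cells of a type and less RNA per cell cannot be told apart. All 10 hepatocyte markers were detected on both arrays, and albumin (Alb) had processed signals, that is, intensities after background subtraction, of 159091 and 141790 for fasting and feeding.

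Among the 8 members measured, Slc2a4 was past 2-fold, higher upon feeding, and none was past 2-fold in the other direction. Over all 16346 genes measured, the share past 2-fold was 7.91%, made up of 3.29% higher and 4.62% lower. How that share divides by direction depends on the scaling and on how genes detected on 1 array only were treated. Thus 1 of 8 members (12.5%) stands beside a background at which the count of 1 is not a result about the family. At 1.5-fold, 2 of 8 members were called, Slc2a4 higher and Slc2a6 lower, beside 21.1% of all genes, 10.5% higher and 10.6% lower. The median change of the 8 members, on the log2 scale as feeding minus fasting, was -0.08 with a range of -0.73 to 2.30, beside a median of 0.0 over all genes. Without Slc2a4 the median of the other 7 was -0.17. With each array scaled to its median, the members' median was 0.07, on a scale where the median of all genes was 0.09.

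**Figure D1:**
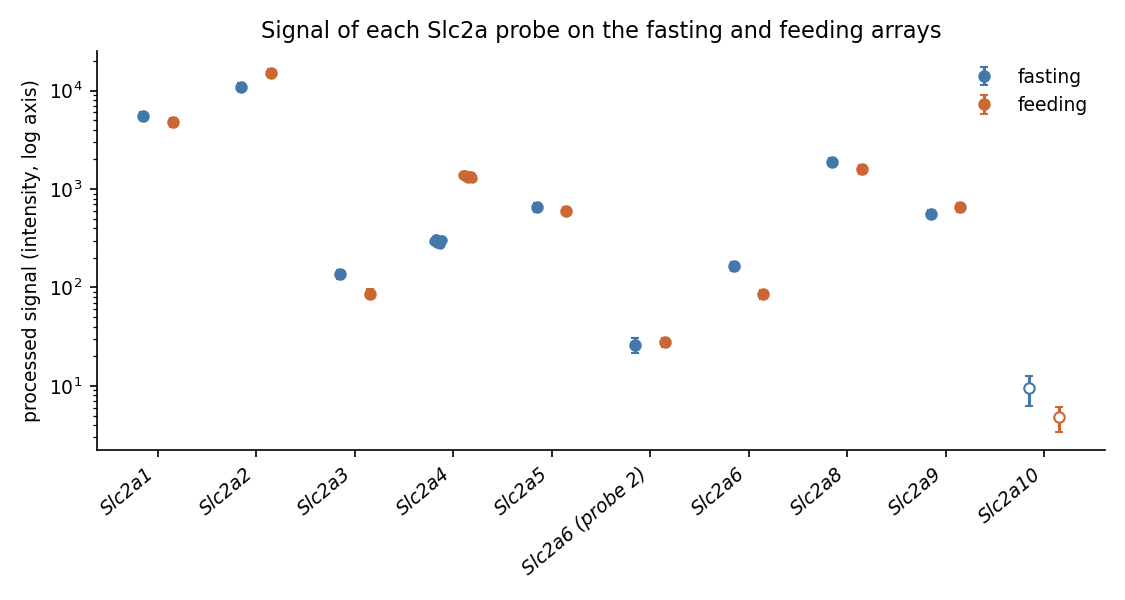
Processed signal (intensity, log axis) of each Slc2a probe on the fasting array (blue) and the feeding array (orange), with the error of the scanner software's model as bars for probes with 1 spot, the 10 spots of the Slc2a4 probe shown singly, and open symbols for spots not detected. Slc2a4 went from about 297 to 1350, whereas the 2 signals of each other detected probe lay closer together, and Slc2a10 was detected on neither array.

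The plot of signals by probe gives what the scanner recorded before the arrays were normalized. Heights of different members in it cannot be ranked, because each probe binds its target with its own strength, and only the step from fasting to feeding within a member is compared.

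The first group is class I, the classical glucose carriers Slc2a1 to Slc2a4. For 2 of these members the bases before the transcription start are shown, as the sequence context of the main hepatocyte carrier and of the carrier found in most cell types. The windows are the 250 bases upstream of the start in the RefSeq promoter table (GRCm38.p6, both on the plus strand, 5′ to 3′), Slc2a1 at chr4:119108495-119108744 and Slc2a2 at chr3:28697653-28697902. Capitals mark GGGCGG on either strand (CCGCCC as printed), the core of the GC box.
Slc2a1: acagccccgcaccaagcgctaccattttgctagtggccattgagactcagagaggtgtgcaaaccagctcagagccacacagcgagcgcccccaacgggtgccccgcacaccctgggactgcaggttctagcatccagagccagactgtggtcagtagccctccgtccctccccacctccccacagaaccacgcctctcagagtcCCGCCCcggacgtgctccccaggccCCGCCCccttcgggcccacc
Slc2a2: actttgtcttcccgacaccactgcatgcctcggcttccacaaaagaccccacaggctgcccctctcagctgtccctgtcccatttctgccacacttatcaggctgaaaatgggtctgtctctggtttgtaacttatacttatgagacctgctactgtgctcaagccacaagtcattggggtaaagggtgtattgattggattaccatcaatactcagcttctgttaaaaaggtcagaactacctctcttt

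The Slc2a1 window held 2 such matches and 66.4% GC with 13 CpG dinucleotides. The Slc2a2 window held 0 matches and 47.2% GC with 2 CpG dinucleotides. The 8 members with an entry include Slc2a10 and Slc2a12, leave out Slc2a3 and Slc2a4, and are not the 8 with a detected probe. Of these 8 members, 4 held GGGCGG, beside 32.7% of the 32851 windows in the table. None of the 8 held TATAAA on the forward strand, which 7.59% of all windows did, or CACGTG on either strand, the letters of the E-box that carbohydrate-responsive factors can bind, which 6.02% did. These motifs share no overlapping match in the printed windows, and a match or its absence describes only the letters.

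Slc2a2 (NM_031197), whose protein moves glucose across the hepatocyte membrane in both directions, had a processed signal of 10889 upon fasting and 15087 upon feeding. After quantile normalization its log2 signal was 13.42 and 13.89, a change of 0.48 or 1.39-fold higher upon feeding. The scanner software's own error gave this difference a standard error of 0.20, which covers the measurement on the arrays and not differences between mice. That error comes from the software's model and is not a spread measured on this probe. Among 25 replicated probes of similar signal, the median SD of the log2 difference between spots was 0.07. Of all genes measured, 14.0% had a higher change. Slc2a2 was higher upon feeding under each of 9 other settings, with changes of 0.46 to 0.71. Of these settings, only the scalings and the background correction could move the value. Its only probe was detected on both arrays, so other filters, bounds and probe averaging leave it as it was.

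Slc2a1 (NM_011400) encodes GLUT1, the carrier of basal glucose uptake in red blood cells, endothelium and many other cells. The processed signal read 5532 upon fasting and 4787 upon feeding, and its normalized change was -0.17. In size this is smaller than the model error of 0.20 and larger than the spot SD of 0.08 at similar signal. With each array scaled to its median it was 0.03, but this scaling moved the median of all genes to 0.09, and relative to that median the change of Slc2a1 was -0.07. The 6 endothelial markers were each below 0, with a median change of -0.42 and Pecam1 at -1.04. With scaling to the median their median was -0.20, Kdr was above 0 at 0.08 and Pecam1 was within 2-fold at -0.98, as it was under the normexp correction at -0.79. The red blood cell markers had a median change of -0.03 over the 4 measured, with Hba-a1 at -0.05, and the list's median was 0.08 with scaling to the median. What part these cells had in the Slc2a1 signal was not tested.

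Slc2a3 (NM_011401) encodes GLUT3, the high-affinity carrier of neurons and of some white blood cells. It had a low processed signal, 137 upon fasting and 86.8 upon feeding, for a probe with 1 spot. The normalized change was -0.44, or 1.36-fold lower upon feeding, with an error of 0.21, and it was -0.23 under the normexp background correction. Beside it, the leukocyte markers had a median change of -0.37 over the 9 measured, 5 of them below 0 and 3 above, with Ptprc at -0.49. Itgam was past 2-fold higher at 1.503 by its brightest probe, with -0.61 and 0.04 by the others. Their part in the Slc2a3 change was not tested.

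Slc2a4 (NM_009204) had 10 spots of the same probe on each array, so the measurement itself was repeated within the array. The 10 fasting spots ran from 274.8 to 313.8 with a median of 299.96, and the 10 feeding spots from 1294 to 1393 with a median of 1359. Each of the 10 feeding spots was above every fasting spot, and the lowest feeding spot was 4.12 times the highest fasting spot. Spots of a probe share the RNA pool and the array, so this shows the repeatability of the reading and not of the livers.

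**Figure D2:**
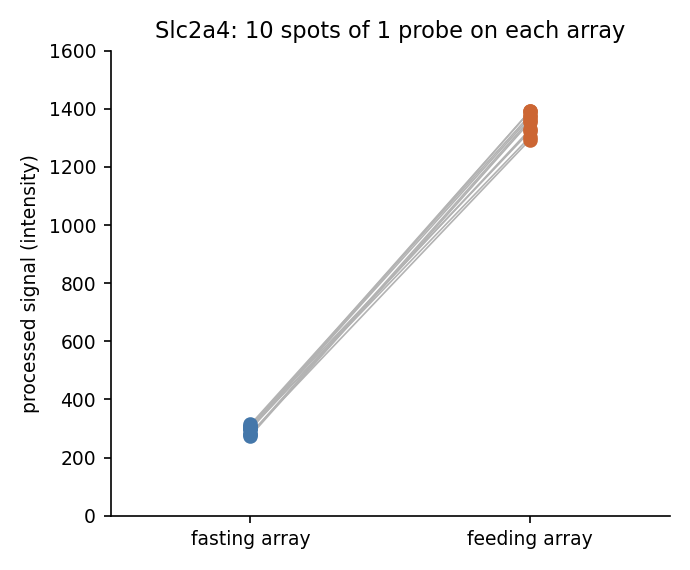
Processed signal (intensity, axis from 0) of the 10 spots of the Slc2a4 probe on the fasting array (blue) and the feeding array (orange), with grey lines joining the spots at the same place on both arrays. The fasting spots lie between 274.8 and 313.8 and the feeding spots between 1294 and 1393, with no overlap.

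As the plot of the 10 spots shows, the spread within an array was small beside the step between the arrays. Before normalization, the spot-by-spot log2 difference was 2.09 to 2.30, with a median of 2.18 and an SD of 0.07. After quantile normalization the change was 2.30, or 4.92-fold higher upon feeding, with a scanner error of 0.21. The local background under these spots was 24.0 to 43.0 upon fasting and 19.0 to 24.0 upon feeding, so that the lower reading upon fasting lay well over it. The change ranged from 1.86 under the normexp correction to 2.42 with scaling to the median, and it was past 2-fold under all 9 other settings. As for Slc2a2, only the scalings and the background correction could move it.

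Slc2a4 was the 49th largest increase among all genes measured, with 0.294% of genes higher. Among the 323 detected probes that were spotted 10 times, 23 were past 2-fold, and 2 had a change at least as high as that of Slc2a4, itself included. The median SD of the difference over these probes was 0.10.

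GLUT4 belongs to fat and muscle, and the markers of those tissues were therefore read beside it. Of 8 adipocyte markers, 5 were detected upon fasting and 6 upon feeding, and their summed normalized signal was 17857 upon fasting and 13972 upon feeding. Nearly all of that sum lay in Fabp4 (8981 and 8601) and Cidec (8679 and 5081), whereas Cfd was at 0.89, or 0.55 under the normexp correction. Plin1, the marker detected upon feeding only, read 3.32 upon fasting and 9.77 upon feeding, with a bound set at 0. Of the changes in this list, 2 were above 0 and 3 below. The median change of the 6 measured adipocyte markers was -0.03, and 0.07 with scaling to the median. The defining adipocyte marker Adipoq read 8.47 upon fasting and 2.51 upon feeding and, like Lep, was detected on neither array. Of 8 skeletal muscle markers, 0 were detected upon fasting and 5 upon feeding, and Ckm, the defining one, was detected on neither array. The step from 0 to 5 goes with a lower detection limit on the feeding array (lowest detected normalized signals of 6.55 upon feeding and 14.4 upon fasting), and Acta1 was among the 5 with a reading of 16.4 upon fasting and 10.2 upon feeding. The summed normalized signals of the muscle list were 37.9 and 57.0, and the median change of the 5 measured was 0.0, with a highest value of 0.02. Of 5 heart muscle markers, 2 upon fasting and 4 upon feeding were detected, with sums of 69.1 and 98.1 and a median change of 0.22 over the 4 measured (-0.0029 under the normexp correction). Myh6, the defining one, read 18.5 and 22.2 by its brighter probe, which was detected upon feeding only. Tnnt2 read 15.05 upon fasting, where it was not detected, and 37.1 upon feeding, at least 2.78-fold higher. Its change was 0.25 under the normexp correction, whose offset draws changes at such low signals toward 0. The part of muscle RNA in the Slc2a4 change was not tested.

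Among the fructose and urate carriers, the probes for Slc2a5 and Slc2a9 gave small differences. Slc2a5 (NM_019741) encodes GLUT5, a fructose carrier of the intestine. It had a processed signal of 653 upon fasting and 601 upon feeding and a normalized change of 0.01, with an error of 0.20. The sign turned with scaling to the 75th percentile (-0.01) and without normalization between the arrays (-0.12), so no direction is given for Slc2a5. Of 5 enterocyte markers, 2 upon fasting and 3 upon feeding were detected, with a median change of 0.0 over the 3 measured. The defining one, Vil1, read 10.5 and 11.5, detected upon feeding only, with a bound set at 0.

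Slc2a9 (NM_001102414) encodes GLUT9, a urate carrier of liver and kidney. The probe read 563 upon fasting and 652 upon feeding, and its normalized change was 0.34, or 1.27-fold higher upon feeding, with an error of 0.20. The value lay between 0.21 and 0.45 under the 9 other settings, of which only the scalings and the background correction could move it. In the order of changes Slc2a9 followed Slc2a2. The 2 changes, 0.34 and 0.48, are closer to each other than the model error of either, beside a spot SD at similar signal of 0.07 for each. Of 5 kidney tubule markers, 1 upon fasting and 4 upon feeding were detected, with the lower detection limit on the feeding array. Umod read 7.06 and 12.5, detected upon feeding only, with a bound set at 0. The list's median change was 0.02 over the 4 measured.

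The remaining members, Slc2a6, Slc2a8 and Slc2a10, are class III, several of which reside on membranes inside the cell. Slc2a8 (NM_019488) encodes GLUT8, an intracellular hexose carrier, and had a processed signal of 1895 upon fasting and 1590 upon feeding. Its normalized change was -0.21, or 1.16-fold lower upon feeding, and it was -0.02 with scaling to the median. The change of -0.21 is about the size of the model error (0.20), and the spot SD at similar signal was 0.09. The changes of Slc2a8 and Slc2a1 differ by less than the error of either.

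Slc2a6 (NM_172659) encodes GLUT6, a lysosomal member found in leukocytes. The brighter of its 2 probes read 165 upon fasting and 85.3 upon feeding, a normalized change of -0.73 or 1.66-fold lower upon feeding, with an error of 0.21. The dimmer probe read 26.2 and 27.8, a change of 0.28 with an error of 0.29. The probes disagree in sign, and with the mean of the probes the change of Slc2a6 was -0.23, no longer past 1.5-fold. Under the normexp correction, whose offset draws changes at low signal toward 0, it was -0.34, also within 1.5-fold. The leukocyte markers given beside Slc2a3 had a median change of -0.37, and their part in Slc2a6 was not tested.

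Slc2a10 encodes GLUT10, whose loss in people gives arterial tortuosity. Its probe read 9.45 upon fasting and 4.79 upon feeding and was detected on neither array, so no fold is given.

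**Figure D3:**
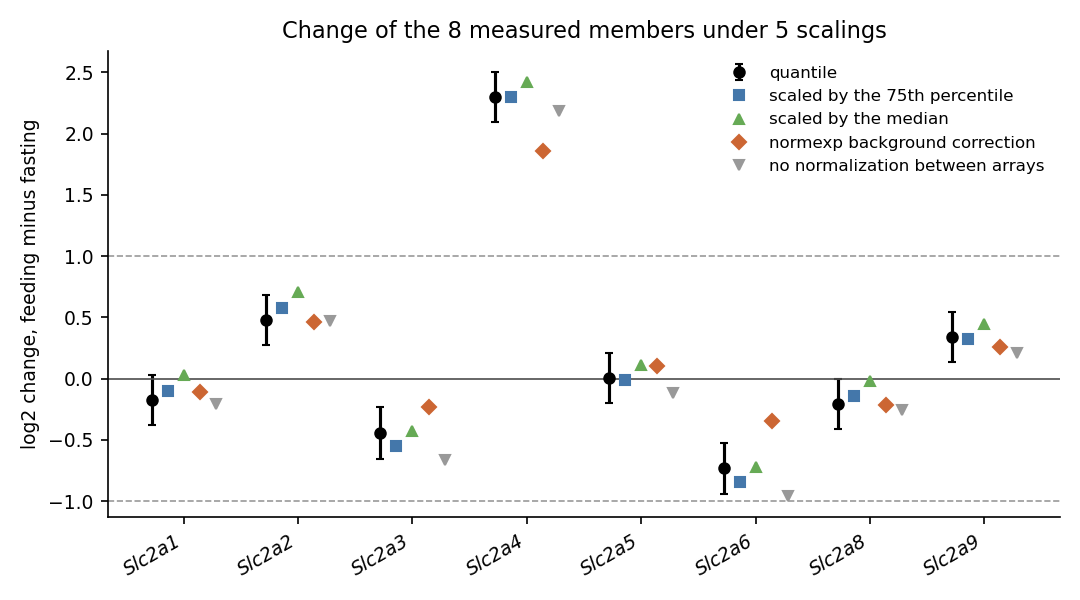
Change of the 8 measured members (log2, feeding minus fasting) under 5 ways of scaling the arrays, with the scanner software's standard error as bars on the quantile normalized values and dashed lines at 2-fold. Slc2a4 is past 2-fold in all 5, whereas Slc2a5 crosses 0, Slc2a1 does so with scaling to the median, which moved the median of all genes to 0.09, and the rest keep their side of 0.

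The plot of changes by scaling shows that no other member passed 2-fold under any of the 5 scalings. For Slc2a6, the value without normalization, -0.96, came nearest to 2-fold.

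**Figure D4:**
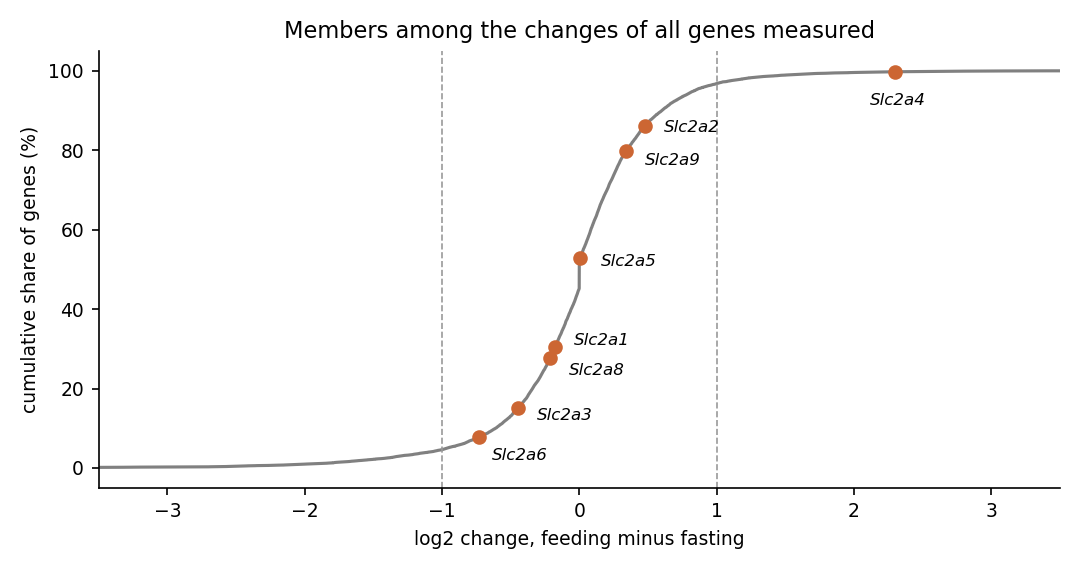
Cumulative share of the 16346 genes measured (percent) against their change (log2, feeding minus fasting), with the 8 members as points and dashed lines at 2-fold; the step at 0 holds 1148 genes detected on 1 array only whose bound was set at 0. Slc2a4 stands near the top with 0.294% of genes higher, and the other 7 members lie between the 2-fold lines.

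In this order of all genes, the share with a higher change was 20.2% for Slc2a9, 47.1% for Slc2a5, 69.5% for Slc2a1, 72.3% for Slc2a8, 84.9% for Slc2a3 and 92.3% for Slc2a6. The median size of change without regard to sign was 0.39 over the members and 0.26 over all genes. The direction of the calls over all genes depends on the scaling and on the bound used for genes not detected on both arrays. After quantile normalization there were 537 higher and 756 lower with the bound, and 876 higher and 760 lower without it. With the bound kept, there were 717 and 649 with scaling to the median, and 389 and 979 without normalization between the arrays.

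The carriers act beside enzymes that trap or free the hexose, and 4 lists of related genes were read in the same way. Of 9 further sugar transporters, 8 were measured and none was past 2-fold, with a median change of 0.01, which was -0.07 with scaling to the 75th percentile. Slc2a13, a proton-coupled inositol carrier of the same gene family, read 49.8 upon fasting and 30.5 upon feeding, a change of -0.48, or -0.09 under the normexp correction. Of the sodium-coupled carriers, Slc5a2 (32.6 upon fasting and 35.5 upon feeding) had a change of 0.34, Slc5a10 (136 and 101) of -0.22 and Slc5a11 (37.8 and 28.8) of -0.16. Under the normexp correction these changes were 0.04, -0.10 and -0.06. The dimmer Slc5a11 probe, detected upon feeding only, differed by 0.92 without a bound. Slc5a1, detected upon feeding only, had a bound of 0.44. Slc2a7 was detected on neither array.

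Hexose phosphorylation and glucose release were read in 11 genes, all measured, with a median change of 0.04 (-0.06 under the normexp correction), none past 2-fold higher and 1 past 2-fold lower. The lower one was G6pc, the catalytic subunit of glucose-6-phosphatase that frees glucose for release, at 51477 upon fasting and 14639 upon feeding, a change of -1.77. Khk, the fructokinase, was at 0.93, and past 2-fold with scaling to the median (1.13) or to the 75th percentile. Hk2, a hexokinase, was at 0.40, and Pgm2, a phosphoglucomutase, was at -0.63.

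All 17 genes that sort GLUT4 or carry the insulin signal to it were measured, with a median change of -0.06 (0.03 with scaling to the median), 1 past 2-fold higher and 1 lower. Snap23, a membrane fusion protein, was at 1.56 by its brighter probe and 0.05 by its other probe. Irs2, an insulin receptor substrate, read 161 upon fasting and 65.5 upon feeding, a change of -1.08. It was -0.42, within 2-fold, under the normexp correction, whose offset draws changes at such low signals toward 0. The insulin receptor Insr was at -0.63 by its brightest probe, with -0.89 and 1.01 by the others, and Stxbp3, a syntaxin-binding protein, was at -0.46.

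The 13 regulators of glucose transporter genes and proteins were all measured, with a median change of -0.28, 1 past 2-fold higher and 1 lower, or 3 higher and 1 lower with scaling to the median. Srebf1, an insulin-responsive activator of lipogenic genes, read 206 upon fasting and 1677 upon feeding, a change of 3.15. Mef2a, a factor that drives Slc2a4 in muscle, read 6577 and 1213, a change of -2.39, with -0.61 by its dimmer probe. Txnip, which promotes the removal of GLUT1 from the surface, was at -0.97 and -1.86 by its brighter and dimmer probes, and Klf15, a factor of fasting metabolism that activates Slc2a4 in fat and muscle, was at -0.91.

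**Figure D5:**
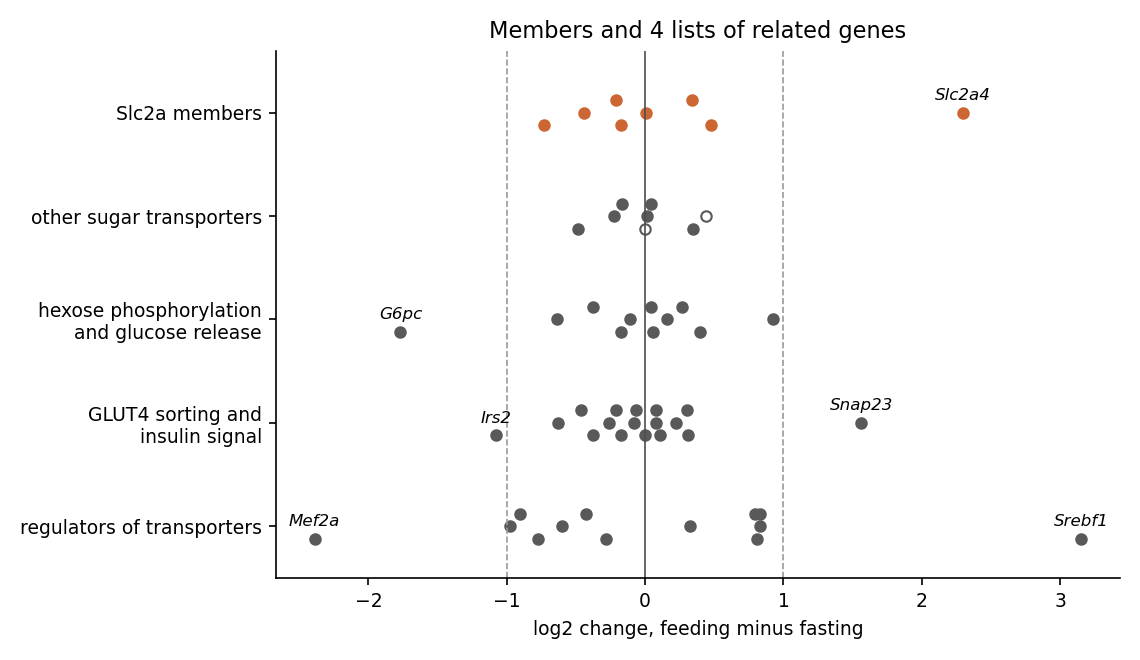
Change (log2, feeding minus fasting) of the measured Slc2a members (orange) and of the genes of 4 related lists (grey), with dashed lines at 2-fold and open symbols for genes detected on 1 array only. Slc2a4 at 2.30 stands alone past the line among the members and the other sugar transporters, hexose phosphorylation and glucose release has G6pc past 2-fold lower, and each of the last 2 lists has 1 gene past 2-fold on each side.

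The plot of the lists sets the members beside genes of the same pathway. Apart from Slc2a4, the members and the other sugar transporters stayed within 2-fold, and the genes past it in the other lists were G6pc, Snap23, Irs2, Srebf1 and Mef2a.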

How the data were processed

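Total RNA pooled from 3 livers per group was labelled with Cy3 and scanned by the authors, who deposited the Agilent Feature Extraction output (11.0.1.1). The deposited values used here are intensities per spot: the processed signal, from which background was subtracted, the median signal and the local background, none normalized between arrays. The value table of the series equals the local background mean for 44397 of 44397 spots (relative tolerance 1e-06) and was not used as expression.

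Control and outlier spots (123 upon fasting, 98 upon feeding) were left out. Spots of a probe were averaged as log2 of the processed signal, and the probes were quantile normalized. A probe was taken as detected, or well above background, where at least 0.5 of its spots were. Probes were named by transcript identifier through the RefSeq table of GRCm38.p6 (27218 of 39402 matched); the array annotation is on mm9, so no probe coordinates are given. A gene was represented by its brightest probe. Where it was detected on 1 array only, the change is a bound, against the higher of its own signal and the lowest signal well above background on that array (14.4 upon fasting, 6.55 upon feeding), set at 0 where the bound was under 1-fold.

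The 2-fold threshold is that of the study's methods. The members and lists were chosen with earlier results of these data known. The genes named are all members, of each of 4 lists at most 4 genes with the largest change among those detected on both arrays, any past 2-fold, and the first marker of each of 12 marker lists, written from general knowledge; 1 gene of these lists is not reported here, and Lep, Slc5a1, Kdr, Itgam, Fabp4, Cidec, Cfd, Acta1, Tnnt2, Sox9, Cela2a, Ins2, Pck1 and Tat were added after their values were seen. The number of arrays limits the precision. Alternatives were other scalings, a normexp correction (offset 50, limma 3.58.1 in R 4.3.3, on the median signal), other filters, bounds and thresholds, and the mean of a gene's probes. Python 3.11.15 with pandas 2.3.3 and numpy 2.4.6 was used. The procedure was tested on simulated data without the bound, and with noise of the same size at all signal levels.

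Of the marker lists not given in the report, the cholangiocyte list had a median change of 0.08 over 5 measured genes, with Krt19 at -0.31 and 1 gene past 2-fold, Sox9 at 2.11; the median was -0.01 with scaling to the 75th percentile. The stellate cell list had a median change of -0.12 over 6, and its first marker Des was detected upon feeding only, with a bound set at 0. The pancreas list had a median change of -0.05 over 6, with Ins1 at 0.14, Ins2 at -0.46 and 1 gene past 2-fold, Cela2a at -2.70, which was at -0.40 under the normexp correction; the median was 0.05 with scaling to the median. The hepatocyte list had a median change of -0.07 over 10, of which 8 were below 0 and 1 was past 2-fold, Pck1 at -2.95, with Tat at -0.97; the median was 0.10 with scaling to the median, a scaling that moved the median of all genes to 0.0939.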

Additional observations from a re-analysis of the deposited data

How the results depend on the processing

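Slc2a4 was past 2-fold higher upon feeding under each alternative that was run, of which only the scalings and the background correction could move its value. The median change of the members was -0.08. It was 0.0709 with scaling to the median, which moved the median of all genes to 0.0939. The number of members called was 2 at 1.5-fold. The number of all genes called was 527 under the normexp correction, 2023 without a filter, 3451 at 1.5-fold and 469 at 3-fold, against 1293, the cause of the first being not tested and the others following from the genes or thresholds admitted. Slc2a1 was at 0.03 with scaling to the median, which was -0.07 relative to the median of all genes. Scaling turned the sign of Slc2a5 (-0.01 with the 75th percentile, -0.12 without normalization). The setting without normalization between arrays was chosen after seeing the data. Names from a gene name column were planned and not run, since the scanner files used here hold no such column. No paired analysis was possible because each group has 1 array, so the groups share fewer than 2 replicate numbers. Signal over background limits Slc2a10, and with 1 array per group differences between mice were not measured.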
